A study of Homo sapiens with 18 samples.

Results

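The 9 genes described here encode the transcriptional end of the Hippo pathway and the cofactors and scaffolds that act on it directly. They are the coactivators YAP1 and WWTR1 (whose protein is TAZ), the DNA-binding factors TEAD1, TEAD2, TEAD3 and TEAD4, the TEAD cofactor VGLL4, and the angiomotins AMOT and AMOTL1. They were listed by name, with earlier results of these data known. Their Ensembl identifiers were matched to symbols through GENCODE 29, so that 9 of the 58336 genes of the count table are described. All 9 passed the filter on low counts, and the fewest counts of any of them in any library was 239. RNA-seq was run on HEK293A, a human embryonic kidney cell line, in 6 groups of 3 libraries, 18 in all. Wild-type cells and LATS1/2-DKO cells, in which LATS1 and LATS2 are both knocked out, were each kept for 4 h in H2O (water), in 250 uM ZnCl2 (zinc) or in 50 uM CdCl2 (cadmium). The labels do not say from how many clones the knockout cells came or which bases were edited, and the effect of the genotype and a difference between the 2 cell lines cannot be told apart.

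In the Hippo pathway, the kinases MST1 and MST2 activate LATS1 and LATS2, which phosphorylate YAP and TAZ so that they are held in the cytoplasm or degraded. YAP and TAZ do not bind DNA themselves: once in the nucleus they bind TEAD factors and activate genes of growth and adhesion, while VGLL4 competes with them for TEAD. Angiomotins bind YAP and TAZ, are also found at tight junctions and on actin filaments, and are themselves LATS substrates. These steps act on proteins, and the values here are RNA levels.

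Total counts ran from 25478614 to 37148046 a library. Levels are given in CPM, read counts scaled to the library's effective size with TMM factors, one value per library in the order of replicates 1, 2 and 3, and levels of different genes are compared only as CPM per kilobase of exon. A value after ± is the SE for a log2 fold change and the SD over 3 libraries for a level, share or ratio. In bulk RNA, a change in the share of cells that express a gene and a change in RNA per cell cannot be told apart. The RNA of LATS1, one of the knocked-out genes, was 79.2 ± 2.47 CPM (SD, n = 3) in wild type and 45.3 ± 1.102 CPM in the knockout in water. For LATS2 the values in water were 16.4 ± 0.147 and 18.6 ± 0.334 CPM, so its RNA was not lower in the knockout there. In zinc and in cadmium it was lower in the knockout, with log2 fold changes of -0.32 ± 0.05 and -0.74 ± 0.05 (adjusted p = 6.23e-07 and 5.67e-15, edgeR quasi-likelihood test, Benjamini-Hochberg adjustment). Counts over a whole gene do not show an edited stretch. Of 10 markers of an embryonic kidney line, 6 reached 1 CPM in wild type and 8 in the knockout, with PAX2 and NEFM below it in both, and their summed level in water was 928 to 958 CPM in wild type and 3035 to 3051 CPM in the knockout. The summed level of 7 fibroblast markers was 11.5 to 13.5 CPM in wild type and 53.2 to 60.9 CPM in the knockout in water, with 2 and 4 of them at 1 CPM or more. COL1A2, DCN and THY1 were below 1 CPM in both, and in water LUM and PDGFRB were below it in wild type only. In zinc LUM was below 1 CPM in the knockout as well. Of 6 keratinocyte markers none reached 1 CPM, with sums of at most 1.20 CPM, and of 6 blood markers 1 or 2 did, with sums of 2.45 to 5.53 CPM over all 18 libraries and PTPRC, CD3E, HBB and SPI1 below 1 CPM. The part of these differences in the results below was not tested. In the wild-type zinc group replicate 3 was unlike the rest: over genes, its chi-square divided by its degrees of freedom was 4.96 and 5.04 against replicates 1 and 2, and theirs against each other 1.88, so results that turn on it are given with and without it.

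AMOT, TEAD4, TEAD1 and TEAD3 differed most between the genotypes, all of them higher in the knockout, and AMOT and TEAD3 differed most between zinc and water, in opposite directions. YAP1 RNA moved least of the 9: its 18 libraries ran from 95.9 to 110.0 CPM, a ratio of 1.15, and 57 of the 11325 genes with a mean of at least 5 CPM had a smaller ratio. AMOT ran from 7.78 to 53.8 CPM, a ratio of 6.92. Of the variance of log2 CPM over the 18 libraries, the genotype took 90.02% for TEAD1, 87.6% for TEAD4, 83.4% for AMOT and 73.04% for WWTR1. It took 53.5% for AMOTL1, beside 39.0% for the treatment. For VGLL4 it took 38.8%, beside 36.3% for treatment effects that differed by genotype. The treatment took the largest share for TEAD3, 65.4%, and for TEAD2, 46.1%. For YAP1 the largest share, 48.01%, was that of treatment effects that differed by genotype, and 36.6% lay between replicates.

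**Figure D1:**
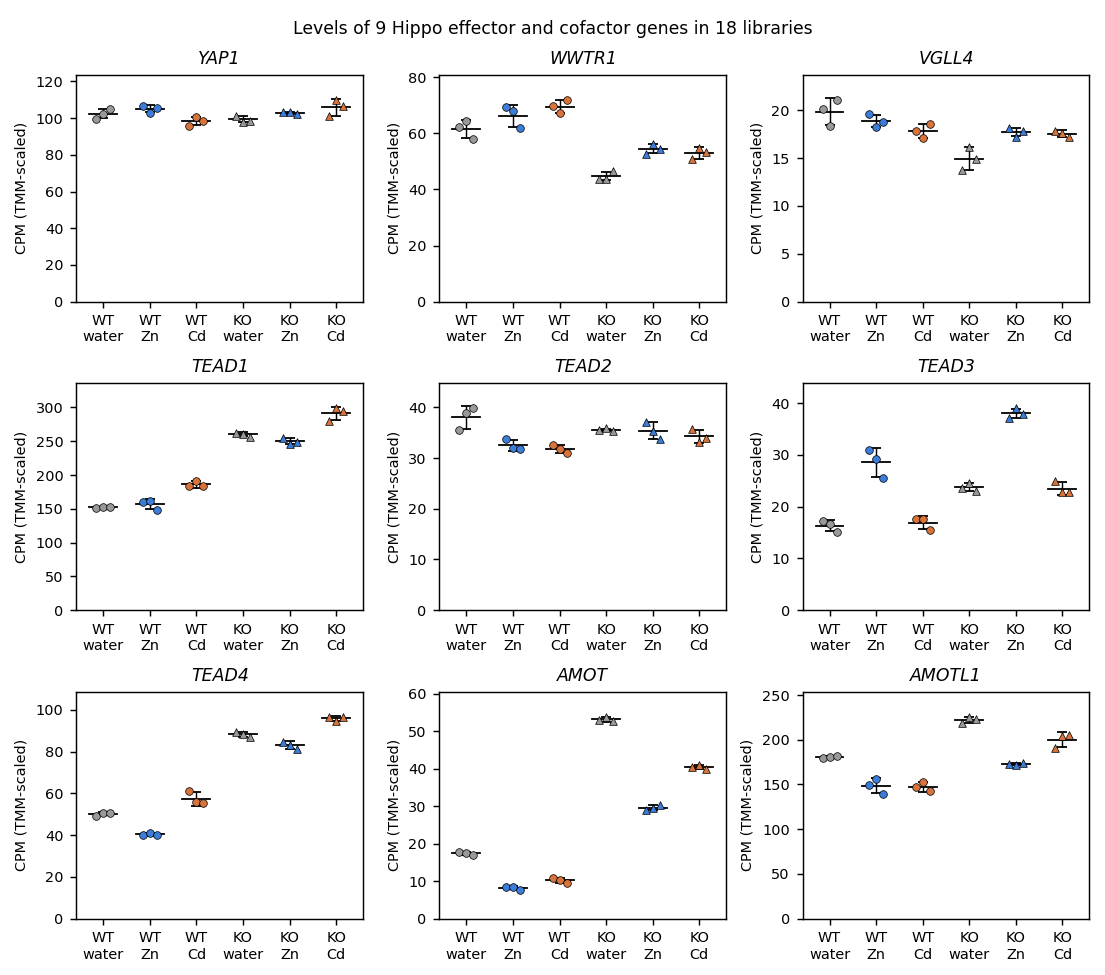
Level of each of the 9 genes in CPM (TMM-scaled, vertical axes from 0) in the 6 groups; circles are wild-type (WT) and triangles knockout (KO) libraries, gray water, blue zinc and orange cadmium, with bars for the mean and SD of 3 libraries. AMOT runs from 7.78 to 53.8 CPM, whereas all YAP1 libraries lie between 95.9 and 110.0 CPM.

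Each comparison was tested over all 19393 genes that passed the filter, with the edgeR quasi-likelihood test, Benjamini-Hochberg adjustment over all of them and a threshold of 0.05. Much of the transcriptome passed that threshold, so the counts of these 9 genes are read against it. Between knockout and wild type in water, 7 of the 9 passed, 5 higher and 2 lower, where 62.9% of all genes passed, 30.8% higher and 32.1% lower. In zinc, 7 differed between the genotypes, 6 higher and 1 lower, beside 66.7% of all genes, 34.0% higher and 32.7% lower. In cadmium, 8 did, 7 higher and 1 lower, beside 67.1%, 32.6% and 34.5%. Most genes passed in these comparisons, and nothing particular to the 9 genes is read from their counts. The median log2 fold change of the 9 genes was 0.30 in water, 0.22 in zinc and 0.44 in cadmium, and that of all tested genes -0.018, 0.0033 and -0.02. These 9 genes share 1 genotype contrast per treatment and are not replicates of it.

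Zinc against water passed for 6 of the 9 in wild type, 2 higher and 4 lower, beside 61.3% of all genes, 29.4% higher and 32.0% lower. In the knockout 6 passed, 3 higher and 3 lower, beside 55.9%, 28.2% and 27.7%. Cadmium against water passed for 7 in wild type, 3 higher and 4 lower, beside 61.7%, 30.0% and 31.7%. In the knockout 7 passed, 5 higher and 2 lower, beside 47.0%, 23.2% and 23.8%. Cadmium against zinc passed for 5 in wild type, 3 higher and 2 lower, beside 52.3%, 27.3% and 25.0%. In the knockout 5 passed as well, 4 higher and 1 lower, beside 48.2%, 24.0% and 24.3%. The zinc and the cadmium comparisons of a genotype use the same water libraries. With library size alone in place of TMM factors, the median of all genes moved from -0.014 to -0.13 for cadmium in wild type and from -0.0025 to -0.12 in the knockout, and the share of called genes that were higher moved from 48.6% to 35.5%, from 49.3% to 28.8% and, for zinc in the knockout, from 50.4% to 37.2%. With that scaling 4 of the 9 genes passed for cadmium in the knockout: WWTR1 higher and TEAD2, AMOT and AMOTL1 lower.

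**Figure D2:**
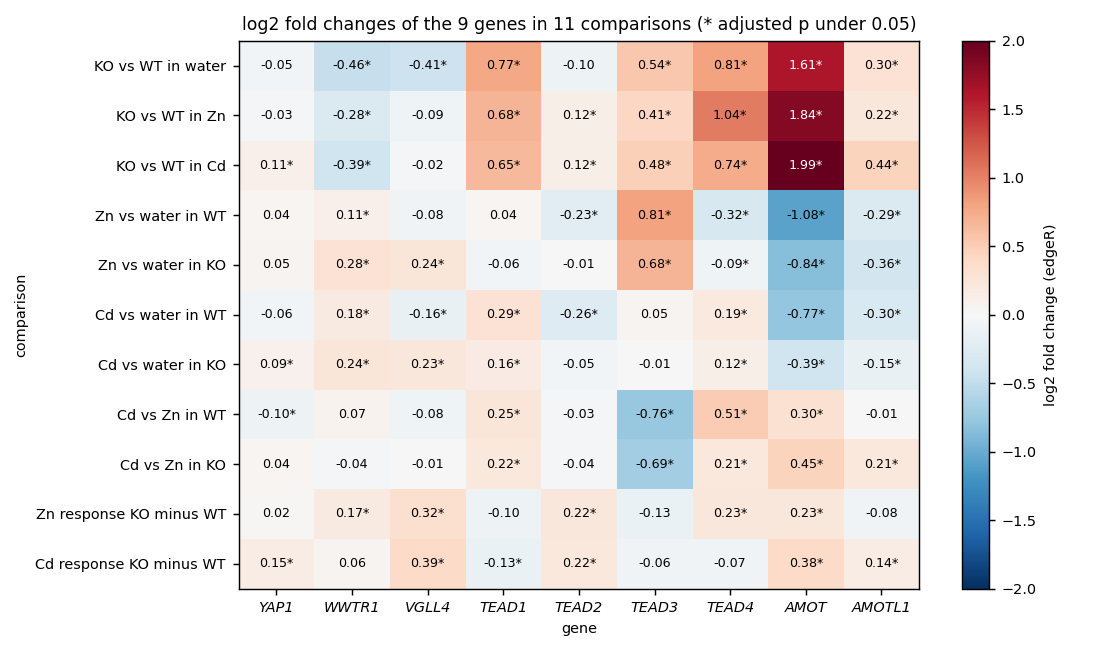
Log2 fold changes from edgeR (color scale, values printed) of the 9 genes (columns) in the 11 comparisons (rows), KO being the knockout; an asterisk marks an adjusted p under 0.05 over all tested genes. AMOT holds the largest values, from 1.61 to 1.99 between the genotypes, and the YAP1 value farthest from 0 is 0.15, for the cadmium response in the knockout minus that in wild type.

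YAP1 (ENSG00000137693, chromosome 11, 102110461 to 102233423, plus strand of GRCh38) encodes YAP, the coactivator that LATS kinases phosphorylate. Its level was 99.8, 103 and 105 CPM in wild type in water, 107, 103 and 106 CPM in zinc and 95.9, 101 and 98.6 CPM in cadmium. In the knockout it was 101, 98.1 and 98.6 CPM in water, 103, 103 and 102 CPM in zinc and 101, 110.0 and 107 CPM in cadmium. The wild-type and knockout libraries overlapped in water and in zinc. The genotype difference did not pass in either (edgeR quasi-likelihood test, Benjamini-Hochberg adjustment), with log2 fold changes of -0.047 ± 0.034 in water (adjusted p = 0.229, 95% interval -0.11 to 0.019) and -0.03 ± 0.034 in zinc (adjusted p = 0.456, 95% interval -0.10 to 0.037). In cadmium the knockout was higher by 0.11 ± 0.03 (adjusted p = 0.00677) with no overlap, a call that was lost without replicate 1 of wild type in cadmium (adjusted p = 0.0752) or replicate 2 of the knockout in cadmium (adjusted p = 0.0801). Cadmium against water in the knockout gave 0.092 ± 0.034 (adjusted p = 0.0244), which turned to -0.021 with library size alone and did not pass without replicate 2 or 3 of either group (adjusted p from 0.0828 to 0.166). In wild type cadmium gave -0.061 ± 0.034 (adjusted p = 0.123, 95% interval -0.13 to 0.0064), and with library size alone it passed at -0.18 (adjusted p = 1.90e-05). With no filter this value also passed, at -0.095 (adjusted p = 0.0374). Zinc against water passed in neither genotype, at 0.036 ± 0.034 in wild type (adjusted p = 0.380, 95% interval -0.031 to 0.10) and 0.053 ± 0.034 in the knockout (adjusted p = 0.184, 95% interval -0.013 to 0.12). Both passed with the filter of 5 CPM, at 0.076 and 0.081 (adjusted p = 0.0431 and 0.0325), and the second with only the compared groups, at 0.068 (adjusted p = 0.0422). Cadmium was below zinc in wild type (log2 fold change -0.10 ± 0.034, adjusted p = 0.0170), and this too was lost without replicate 1 of zinc (adjusted p = 0.0700) or of cadmium (adjusted p = 0.0966).

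The sequence before the YAP1 start is shown because it belongs to the steadiest of the 9 genes and was the only one of those searched with a TEAD motif. It is the 250 bases upstream of the RefSeq start on GRCh38.p14 (chr11:102110197-102110446, plus strand, 5′ to 3′), with the matched TEAD and metal motifs in capitals and matches to Sp1 left in lower case:
YAP1 promoter: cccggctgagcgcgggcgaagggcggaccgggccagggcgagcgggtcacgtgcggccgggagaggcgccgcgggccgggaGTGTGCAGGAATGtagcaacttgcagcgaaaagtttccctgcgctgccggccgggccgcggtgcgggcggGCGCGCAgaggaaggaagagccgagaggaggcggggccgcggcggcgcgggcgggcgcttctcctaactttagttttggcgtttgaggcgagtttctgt
The TEAD motif GGAATG lay 162 bases before the start and followed directly on GTGTGCA, at 169 bases, which is the reverse complement of a match to the metal response element core TGCACNC. A match to the other form of that core, TGCGCNC, lay 99 bases before the start and reads GCGCGCA on this strand, its reverse complement. GGAATG on either strand was found in 11.9% of 35116 RefSeq promoter windows of this length, and the metal response element core, TGCACNC or TGCGCNC, in 24.8%. The window was 72.00% G and C with 36 CpG, where the median window had 58.00% and 11. These are letter matches, and no binding was measured.

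WWTR1 (ENSG00000018408, chromosome 3, 149517235 to 149736714, minus strand) encodes TAZ, the paralog of YAP with the same LATS-dependent control. In water its level was 62.4, 64.4 and 57.99 CPM in wild type and 43.9, 43.9 and 46.5 CPM in the knockout, with every knockout library below every wild-type one. The log2 fold change was -0.46 ± 0.05 (adjusted p = 4.23e-11, edgeR quasi-likelihood test, Benjamini-Hochberg adjustment), or 0.729 times the wild-type level. In zinc the levels were 69.3, 67.8 and 61.8 CPM in wild type and 52.8, 56.1 and 54.5 CPM in the knockout, a difference of -0.28 ± 0.05 (adjusted p = 8.61e-07). In cadmium they were 69.6, 67.1 and 71.97 and 50.9, 54.8 and 53.4 CPM, a difference of -0.39 ± 0.05 (adjusted p = 7.33e-10). WWTR1 was thus lower in the knockout under each treatment, with no overlap. Both metals raised it in the knockout, zinc by 0.28 ± 0.05 (adjusted p = 2.33e-06) and cadmium by 0.24 ± 0.05 (adjusted p = 4.70e-05). In wild type cadmium raised it by 0.18 ± 0.04 (adjusted p = 6.53e-04), which did not pass with library size alone (0.058, adjusted p = 0.260). Zinc in wild type gave 0.11 ± 0.04 (adjusted p = 0.0352) with overlapping groups, and 6 of 13 alternatives, among them leaving out replicate 1 or 3 of water or replicate 1 or 2 of zinc (adjusted p from 0.0531 to 0.271), ended that call.

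Per kilobase of exon, YAP1 stood above WWTR1 in all 18 libraries. The ratio of YAP1 to WWTR1 was 2.23 ± 0.167 (SD, n = 3) in wild type in water, 2.12 ± 0.140 in zinc and 1.89 ± 0.0971 in cadmium. In the knockout it was 2.97 ± 0.125, 2.53 ± 0.0837 and 2.67 ± 0.0142. The lowest knockout ratio, 2.45 in zinc, was above the highest wild-type ratio, 2.42 in water. With lengths of the longest coding transcript the ratios in water were 1.56 and 2.07, so their size moves with the length chosen.

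TEAD1 (ENSG00000187079, chromosome 11, 12674591 to 12944483, plus strand) and TEAD4 (ENSG00000197905, chromosome 12, 2959330 to 3040673, plus strand) encode 2 of the 4 factors through which YAP and TAZ reach DNA, and both were higher in the knockout under every treatment. TEAD1 was 151, 152 and 153 CPM in wild type and 263, 261 and 257 CPM in the knockout in water. The difference was 0.77 ± 0.03 on the log2 scale, 1.71-fold (adjusted p = 1.70e-22, edgeR quasi-likelihood test, Benjamini-Hochberg adjustment). In zinc TEAD1 was 160.0, 162 and 148 CPM in wild type and 255, 246 and 249.6 CPM in the knockout, and in cadmium 184, 191 and 183 and 279.8, 299 and 295 CPM. The genotype difference was 0.68 ± 0.03 in zinc and 0.65 ± 0.03 in cadmium (adjusted p = 1.08e-20 and 2.63e-20), and the highest wild-type library of all, at 191 CPM, lay below the lowest knockout library. Cadmium raised TEAD1 by 0.29 ± 0.03 in wild type (adjusted p = 5.36e-10) and by 0.16 ± 0.03 in the knockout (adjusted p = 3.58e-05), and the second did not pass with library size alone (0.049, adjusted p = 0.184). Zinc gave 0.043 ± 0.033 in wild type (adjusted p = 0.265) and -0.056 ± 0.031 in the knockout (adjusted p = 0.126), and neither passed. With library size alone the knockout value was -0.15 and passed (adjusted p = 1.00e-04), and with the filter of 5 CPM the wild-type value was 0.083 and passed (adjusted p = 0.0228). Without replicate 3 of zinc-treated wild type, the first became 0.081 and passed (adjusted p = 0.0333).

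TEAD4 was 49.3, 50.6 and 50.8 CPM in wild type and 89.2, 88.6 and 87.1 CPM in the knockout in water, a log2 fold change of 0.81 ± 0.04 or 1.76-fold (adjusted p = 8.69e-21, edgeR quasi-likelihood test, Benjamini-Hochberg adjustment). Zinc left 40.05, 41.1 and 39.95 CPM in wild type and 84.8, 83.4 and 81.2 CPM in the knockout, and cadmium 61.4, 55.8 and 55.2 and 96.7, 94.7 and 96.7 CPM. The 2 metals moved TEAD4 in opposite directions in wild type: zinc lowered it (log2 fold change -0.32 ± 0.04, adjusted p = 1.87e-08) and cadmium raised it by 0.19 ± 0.04 (adjusted p = 5.55e-05). The direct comparison put cadmium above zinc by 0.51 ± 0.04 in wild type (adjusted p = 1.40e-13) and by 0.21 ± 0.04 in the knockout (adjusted p = 7.65e-06), with no overlap in either. The genotype difference was 1.04 ± 0.04 in zinc and 0.74 ± 0.04 in cadmium (adjusted p = 8.25e-24 and 7.37e-20). In the knockout the zinc value was -0.086 ± 0.036 (adjusted p = 0.0409), and 7 of 13 alternatives ended that call, among them the counts of 1 strand (adjusted p = 0.0721) and leaving out any 1 of the 6 libraries other than replicate 3 in water (adjusted p from 0.0579 to 0.165). The cadmium calls did not pass with library size alone, at 0.073 in wild type (adjusted p = 0.105) and 0.0086 in the knockout (adjusted p = 0.861).

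TEAD3 (ENSG00000007866, chromosome 6, 35473597 to 35497076, minus strand) encodes the family member best known from placenta, and it was the TEAD gene that zinc raised. In wild type its level was 17.2, 16.6 and 15.1 CPM in water, 30.9, 29.2 and 25.5 CPM in zinc and 17.6, 17.7 and 15.4 CPM in cadmium. In the knockout it was 23.7, 24.6 and 22.99 CPM in water, 37.1, 38.99 and 37.9 CPM in zinc and 24.9, 22.8 and 22.8 CPM in cadmium. In both genotypes every zinc library lay above every water and cadmium library, while water and cadmium overlapped. Zinc raised TEAD3 by 0.81 ± 0.07 in wild type, 1.75-fold (adjusted p = 1.09e-13, edgeR quasi-likelihood test, Benjamini-Hochberg adjustment), and by 0.68 ± 0.06 in the knockout, 1.602-fold (adjusted p = 1.01e-12). Of all tested genes, 21.3% had a larger absolute change with zinc in wild type and 20.2% in the knockout. Without replicate 3 of zinc-treated wild type the first value was 0.89. Cadmium gave 0.055 ± 0.07 in wild type (adjusted p = 0.519, 95% interval -0.083 to 0.19) and -0.0091 ± 0.063 in the knockout (adjusted p = 0.923, 95% interval -0.13 to 0.11), and both turned sign under some alternatives. Cadmium lay below zinc, with log2 fold changes of -0.76 ± 0.06 in wild type and -0.69 ± 0.06 in the knockout (adjusted p = 9.96e-13 and 2.03e-12). TEAD3 was also higher in the knockout, by 0.54 ± 0.07 in water, 0.41 ± 0.06 in zinc and 0.48 ± 0.07 in cadmium (adjusted p = 3.66e-09, 7.67e-08 and 4.89e-08).

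The TEAD3 promoter is shown because it belongs to the gene of the 9 with the largest rise in zinc. The 250 bases upstream of its RefSeq start on GRCh38.p14 (chr6:35497080-35497329, minus strand, 5′ to 3′) read as follows, with matches to the metal response element core in capitals:
TEAD3 promoter: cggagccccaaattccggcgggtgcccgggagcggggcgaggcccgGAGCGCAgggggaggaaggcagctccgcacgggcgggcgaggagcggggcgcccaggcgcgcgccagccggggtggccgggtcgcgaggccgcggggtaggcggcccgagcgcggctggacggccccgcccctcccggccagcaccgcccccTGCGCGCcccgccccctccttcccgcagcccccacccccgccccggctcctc
GAGCGCA lay 204 bases before the start and TGCGCGC 52 bases before it. Of the 7 genes of the 9 that matched a RefSeq promoter, 2 held this core in any of their windows, TEAD3 and YAP1. The 24.8% given above is the share of single promoter windows that hold it. Matches to Sp1 are again in lower case. The TEAD3 window was 84% G and C with 37 CpG, and the core is itself rich in G and C.

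TEAD2 (ENSG00000074219, chromosome 19, 49340595 to 49362457, minus strand) encodes the TEAD factor best known from the early embryo and neural progenitors. It was 35.5, 38.9 and 39.8 CPM in wild type in water, 33.8, 32.03 and 31.9 CPM in zinc and 32.6, 31.7 and 31.1 CPM in cadmium. In the knockout it was 35.5, 35.9 and 35.4 CPM in water, 37.1, 35.3 and 33.8 CPM in zinc and 35.8, 33.3 and 34.00 CPM in cadmium. Both metals lowered it in wild type with no overlap. The log2 fold change was -0.23 ± 0.05 for zinc (adjusted p = 8.95e-05, edgeR quasi-likelihood test, Benjamini-Hochberg adjustment) and -0.26 ± 0.05 for cadmium (adjusted p = 1.08e-05). In the knockout the values were -0.0076 ± 0.048 (adjusted p = 0.907, 95% interval -0.10 to 0.086) and -0.047 ± 0.048 (adjusted p = 0.448, 95% interval -0.14 to 0.047), with overlapping groups. TEAD2 was the only TEAD that was not higher in the knockout in water, at -0.10 ± 0.05 (adjusted p = 0.0601), and it was lower past the threshold without replicate 1 of wild type in water (-0.15, adjusted p = 0.0109) or on the counts of 1 strand (-0.12, adjusted p = 0.0248). The genotype differences of 0.12 ± 0.05 in zinc (adjusted p = 0.0294) and 0.12 ± 0.05 in cadmium (adjusted p = 0.0377) were each lost in 7 of 13 alternatives, among them DESeq2 (adjusted p = 0.0835 and 0.0548), the counts of 1 strand (adjusted p = 0.0758 and 0.119) and leaving out 1 library. In zinc these were replicates 2 and 3 of wild type and 1 and 2 of the knockout (adjusted p from 0.0569 to 0.173), and in cadmium all 3 of wild type and 1 and 3 of the knockout (adjusted p from 0.0515 to 0.216). TEAD2 shares 319 bases of exon with CD37 on the other strand, and its count from the strand with most reads was 1.22 to 1.25 times that from both strands.

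Per kilobase of exon, the summed RNA of the 4 TEAD genes was 55.1 ± 0.938 CPM in wild type and 83.9 ± 1.03 CPM in the knockout in water (mean ± SD, n = 3). It was 53.3 ± 1.95 and 85.3 ± 1.501 CPM in zinc and 59.6 ± 1.99 and 89.8 ± 0.403 CPM in cadmium, so all 9 knockout libraries were above all 9 wild-type ones. TEAD4 held the largest share in every group, 40.2 ± 0.0759% in wild type and 46.3 ± 0.152% in the knockout in water. In wild type with zinc the share of TEAD4 was lower, 33.4 ± 1.09%, and that of TEAD3 higher, 17.5 ± 1.08% against 9.74 ± 0.779% in water, with no overlap. In the knockout the TEAD3 share was 9.29 ± 0.220% in water and 14.6 ± 0.518% in zinc. TEAD2 held 23.2 ± 1.02% in wild type and 14.2 ± 0.133% in the knockout in water. The summed TEAD level was 2.33 ± 0.0195 times that of YAP1 and WWTR1 together in wild type and 3.98 ± 0.0807 times in the knockout in water. These shares and ratios move with the counts and lengths chosen, which their SDs do not cover. With lengths of the longest coding transcript, TEAD4 was 29.7 and TEAD3 5.47 CPM per kilobase in wild type in water, against 22.1 and 5.36. In wild type in water the 9 genes came in the order TEAD4 (22.1 ± 0.353 CPM per kilobase), AMOTL1 (18.04 ± 0.0889), YAP1 (16.3 ± 0.425), TEAD1 (14.8 ± 0.102), TEAD2 (12.8 ± 0.768), WWTR1 (7.32 ± 0.388), TEAD3 (5.36 ± 0.359), VGLL4 (2.74 ± 0.192) and AMOT (2.05 ± 0.0486). In the knockout TEAD1 (25.3 ± 0.309) stood second, before AMOTL1 (22.2 ± 0.355) and YAP1 (15.8 ± 0.262). AMOT (6.25 ± 0.0731) and WWTR1 (5.32 ± 0.181) followed TEAD3 there. TEAD4 (38.9 ± 0.477 in the knockout in water) stood first per kilobase in the 6 groups and AMOT last in the 3 wild-type groups, and VGLL4 was last in the 3 knockout groups. Parts of this order depend on the counts and lengths used, in alternatives chosen after seeing the data. With counts of the strand with most reads, YAP1 (19.1 CPM per kilobase) stood above TEAD4 (17.2) in wild type with zinc, and AMOT (3.37) below VGLL4 (4.37) in the knockout with zinc. With the length of the longest coding transcript TEAD4 stood first in the 6 groups, but AMOT (7.26) stood below WWTR1 (8.897) in the knockout in water and below VGLL4 in the knockout with zinc (4.04 against 4.76). AMOT was last in the 3 wild-type groups, and TEAD1 second in the knockout in water, under both. Neighbors in the order per kilobase of exon from both strands overlapped in 3 cases, TEAD1 and AMOTL1 in wild type with zinc, YAP1 and AMOTL1 in wild type with cadmium and TEAD3 and TEAD2 in the knockout with zinc.

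**Figure D3:**
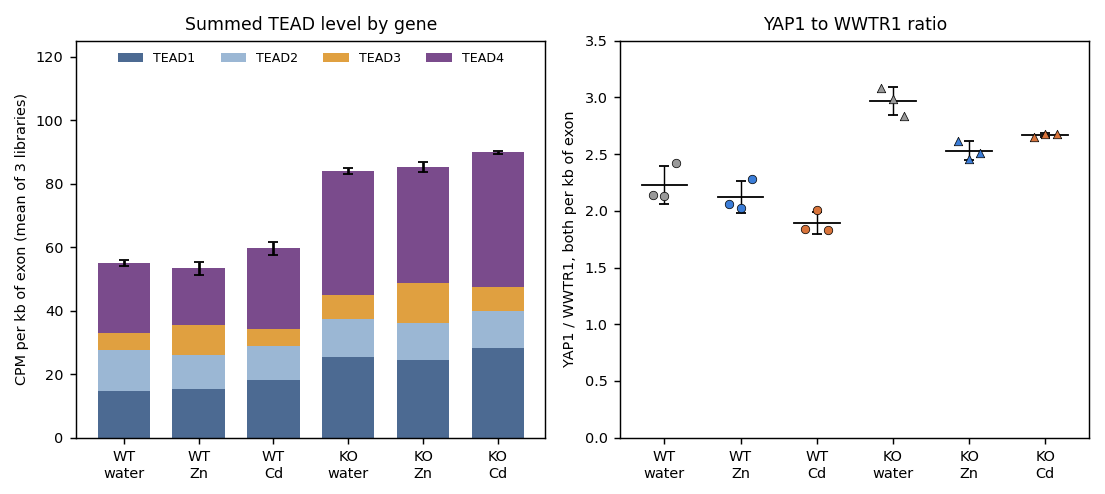
Left, mean CPM per kilobase of exon of TEAD1 to TEAD4 stacked by group, with error bars for the SD of the summed level over 3 libraries; right, the ratio of YAP1 to WWTR1 per kilobase in each library with mean and SD. The summed TEAD level is 55.1 in wild type and 83.9 in the knockout (KO) in water, and all knockout ratios, 2.45 or more, lie above all wild-type ratios, 2.42 or less.

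VGLL4 (ENSG00000144560, chromosome 3, 11556070 to 11771350, minus strand) encodes a cofactor that binds TEAD in place of YAP and acts as a repressor. Its level was 20.1, 18.4 and 21.1 CPM in wild type and 13.8, 16.2 and 14.9 CPM in the knockout in water, with no overlap, a log2 fold change of -0.41 ± 0.06 (adjusted p = 4.31e-07, edgeR quasi-likelihood test, Benjamini-Hochberg adjustment). In zinc it was 19.6, 18.3 and 18.8 CPM in wild type and 18.1, 17.2 and 17.9 CPM in the knockout, and in cadmium 17.9, 17.1 and 18.5 and 17.9, 17.6 and 17.2 CPM. In the metals the genotypes lay closer: the difference was -0.09 ± 0.062 in zinc (adjusted p = 0.204, 95% interval -0.21 to 0.032) and -0.023 ± 0.063 in cadmium (adjusted p = 0.756, 95% interval -0.15 to 0.10). Zinc raised VGLL4 in the knockout by 0.24 ± 0.06 (adjusted p = 0.00117) and cadmium by 0.23 ± 0.06 (adjusted p = 0.00297), the latter not passing with library size alone (0.12, adjusted p = 0.128). In wild type zinc gave -0.075 ± 0.061 (adjusted p = 0.299), which passed with library size alone at -0.14 (adjusted p = 0.0473). Cadmium gave -0.16 ± 0.06 (adjusted p = 0.0266) with overlapping groups, a call that 8 of 13 alternatives ended, among them leaving out replicate 1 or 3 of water or replicate 1 or 2 of cadmium (adjusted p from 0.0554 to 0.190).

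The counts used for VGLL4 cover both strands, and 1596 bases of its exons, 22.1%, also belong to ATG7 on the other strand. Counts from the strand with most reads were 1.74 to 1.88 times those from both strands in the 18 libraries. On those counts VGLL4 was 34.4, 32.8 and 36.1 CPM in wild type and 23.6, 26.6 and 25.1 CPM in the knockout in water. The genotype difference in water was -0.46 and the zinc and cadmium changes in the knockout 0.33 and 0.29 (adjusted p = 9.44e-10, 1.15e-06 and 1.32e-05, edgeR quasi-likelihood test, Benjamini-Hochberg adjustment). The genotype difference in zinc then passed, at -0.13 (adjusted p = 0.0279), and cadmium in wild type did not, at -0.10 (adjusted p = 0.0871). The same ratio was 1.16 to 1.18 for YAP1, 1.06 to 1.09 for WWTR1 and 1.07 to 1.08 for AMOTL1, which overlap antisense genes, and 0.99 to 1.0 for TEAD1, TEAD3, TEAD4 and AMOT.

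AMOT (ENSG00000126016, chromosome X, 112774503 to 112840815, minus strand) encodes angiomotin, a scaffold that binds YAP and also actin, and it moved more than any other of the 9 genes. In water its level was 17.7, 17.6 and 16.96 CPM in wild type and 52.9, 53.8 and 52.7 CPM in the knockout. In zinc it was 8.44, 8.57 and 7.78 CPM in wild type and 28.98, 29.5 and 30.3 CPM in the knockout, and in cadmium 10.9, 10.2 and 9.44 and 40.5, 41.03 and 39.9 CPM. The 6 groups formed 6 separate ranges, in which every knockout library was above every wild-type library and zinc was the lowest treatment in each genotype. The knockout was higher by 1.61 ± 0.05 in water, 3.05-fold (adjusted p = 6.46e-27, edgeR quasi-likelihood test, Benjamini-Hochberg adjustment). It was higher by 1.84 ± 0.06 in zinc, 3.58-fold, and by 1.99 ± 0.05 in cadmium, 3.97-fold (adjusted p = 4.55e-26 and 2.70e-28). Larger absolute differences were seen in 8.16%, 6.42% and 5.91% of all tested genes. Zinc lowered AMOT to 0.474 of the water level in wild type (-1.08 ± 0.06, adjusted p = 1.62e-17) and to 0.557 in the knockout (-0.84 ± 0.04, adjusted p = 6.46e-19). Cadmium lowered it to 0.586 in wild type (-0.77 ± 0.06, adjusted p = 7.16e-14) and to 0.762 in the knockout (-0.39 ± 0.04, adjusted p = 9.02e-10). Cadmium stood above zinc by 0.30 ± 0.07 in wild type and 0.45 ± 0.05 in the knockout (adjusted p = 3.53e-04 and 1.50e-10).

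The AMOT promoter is shown because AMOT had the widest range of the 9 genes. The 250 bases upstream of its RefSeq start on GRCh38.p14 (chrX:112840832-112841081, minus strand, 5′ to 3′) are given with the match to the heat shock element core in capitals:
AMOT promoter: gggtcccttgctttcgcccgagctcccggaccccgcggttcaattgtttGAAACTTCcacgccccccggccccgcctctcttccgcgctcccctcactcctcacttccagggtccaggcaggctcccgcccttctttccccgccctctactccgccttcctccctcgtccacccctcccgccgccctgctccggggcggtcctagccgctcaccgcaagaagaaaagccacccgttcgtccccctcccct
The match, GAAACTTC, lay 201 bases before the start. The core searched was GAANNTTC or TTCNNGAA, found in 11.6% of the 35116 promoter windows and in those of AMOT and VGLL4 among the 7 matched genes. None of the 7 held the AP-1 motif TGANTCA (6.57% of all windows), the EGR1 motif GCGGGGGCG (4.72%) or the CRE TGACGTCA (1.65%), and 6 held the Sp1 motif GGGCGG (42.6%), all but WWTR1. Both strands were searched in 13 windows of the 7 genes, with 1 window for each RefSeq start. A gene was counted if any of its windows held the motif, whereas the percentages are shares of single windows, so these are unlike measures. In the sequences shown, matches to different motifs were allowed to overlap, and matches to Sp1 are in lower case. TEAD1 and TEAD4 were not among the matched promoters. No match says only that these letters are not in these windows.

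AMOTL1 (ENSG00000166025, chromosome 11, 94706431 to 94876753, plus strand) encodes the angiomotin paralog that binds YAP through the same motifs, and its RNA was the more abundant one. In water it was 180.1, 181 and 182 CPM in wild type and 219, 226 and 223 CPM in the knockout. In zinc it was 150.0, 156 and 139 CPM in wild type and 173, 172 and 174 CPM in the knockout, and in cadmium 147, 153 and 142 and 191, 204 and 206 CPM. The knockout was higher under each treatment with no overlap, by 0.30 ± 0.03 in water, 0.22 ± 0.03 in zinc and 0.44 ± 0.03 in cadmium (adjusted p = 7.98e-10, 6.86e-07 and 3.53e-14, edgeR quasi-likelihood test, Benjamini-Hochberg adjustment). Both metals lowered AMOTL1 in both genotypes with no overlap. The log2 fold change for zinc was -0.29 ± 0.03 in wild type and -0.36 ± 0.03 in the knockout (adjusted p = 3.13e-09 and 6.57e-12). For cadmium it was -0.30 ± 0.03 in wild type and -0.15 ± 0.03 in the knockout (adjusted p = 1.43e-09 and 2.31e-04). Cadmium was above zinc in the knockout by 0.21 ± 0.03 (adjusted p = 2.38e-06), and in wild type the 2 metals overlapped at -0.0097 ± 0.035 (adjusted p = 0.839, 95% interval -0.078 to 0.059).

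Per kilobase of exon, AMOTL1 stood 8.81 ± 0.249 times as high as AMOT in wild type in water (SD, n = 3). The ratio was 15.2 ± 0.179 in zinc and 12.3 ± 0.792 in cadmium. In the knockout it was 3.55 ± 0.0438 in water, 4.95 ± 0.0976 in zinc and 4.19 ± 0.190 in cadmium, and within each genotype water, cadmium and zinc did not overlap. AMOTL2, the third angiomotin gene and a YAP target, was measured beside them. Its level in wild type was 123 ± 3.13 CPM in water, 111 ± 4.06 CPM in zinc and 213 ± 10.9 CPM in cadmium. In the knockout it was 176 ± 2.82, 206 ± 3.86 and 278 ± 8.96 CPM. Cadmium, which lowered AMOT and AMOTL1, raised AMOTL2 by 0.79 ± 0.03 in wild type and 0.66 ± 0.03 in the knockout (adjusted p = 1.26e-21 and 3.00e-19, edgeR quasi-likelihood test, Benjamini-Hochberg adjustment). Zinc lowered it in wild type (log2 fold change -0.15 ± 0.04, adjusted p = 3.41e-04) and raised it by 0.23 ± 0.03 in the knockout (adjusted p = 3.14e-07). Among the paralogs of VGLL4, VGLL3, another TEAD cofactor, was 6.57 ± 0.293 CPM in wild type and 21.6 ± 1.78 CPM in the knockout in water, a difference of 1.72 ± 0.09 (adjusted p = 1.33e-19), opposite to VGLL4. VGLL1 had at most 1 count in any library, and VGLL2 stayed at or below 1.16 CPM.

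The response to a metal was compared between the genotypes with an interaction contrast, in which a positive value means that the metal moved the gene further up, or less far down, in the knockout. For zinc 5 of the 9 genes passed, all 5 higher, beside 24.6% of all genes, 14.1% higher and 10.5% lower. For cadmium 6 passed, 5 higher and 1 lower, beside 28.1%, 14.0% and 14.1%. These shares are above those of all genes, with no test of the list and no matching of genes by level. Several of these calls were lost under alternatives, as given below. Both contrasts rest on the same water libraries, so the 2 sets of values are given side by side. VGLL4 had the largest differences, 0.32 ± 0.09 for zinc and 0.39 ± 0.09 for cadmium (adjusted p = 0.00601 and 9.04e-04, edgeR quasi-likelihood test, Benjamini-Hochberg adjustment). Both were called in all 19 alternatives. AMOT fell less in the knockout, by a difference of 0.38 ± 0.08 for cadmium (adjusted p = 1.59e-04), called in all 19 alternatives, and 0.23 ± 0.08 for zinc (adjusted p = 0.0287). The zinc value did not pass in 8 of 19 alternatives, among them DESeq2 (adjusted p = 0.0748), library size alone (adjusted p = 0.0580), the fit without replicate 3 of zinc-treated wild type (0.19, adjusted p = 0.115) and those without replicate 1 or 2 of wild type in water or replicate 3 of the knockout in water or zinc (adjusted p from 0.0534 to 0.0627). TEAD2, which the metals lowered in wild type, differed by 0.22 ± 0.07 for zinc and 0.22 ± 0.07 for cadmium (adjusted p = 0.0137 and 0.0146), and both were lost without replicate 3 of wild type in water (adjusted p = 0.0513 and 0.0584) or 1 knockout library with the metal, replicate 1 each time (adjusted p = 0.0513 and 0.0536).

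TEAD4 fell less with zinc in the knockout, by a difference of 0.23 ± 0.05 (adjusted p = 0.00155, edgeR quasi-likelihood test, Benjamini-Hochberg adjustment) that was called in all 19 alternatives, and for cadmium the difference was -0.072 ± 0.053 (adjusted p = 0.350, 95% interval -0.18 to 0.033). WWTR1 gave 0.17 ± 0.06 for zinc (adjusted p = 0.0454), which did not pass in 12 of 19 alternatives and became 0.12 without replicate 3 of zinc-treated wild type (adjusted p = 0.156). It also did not pass without replicate 1 or 2 of water in either genotype or replicate 2 or 3 of the knockout in zinc (adjusted p from 0.0692 to 0.140). For cadmium WWTR1 gave 0.062 ± 0.065 (adjusted p = 0.533). For cadmium, YAP1 differed by 0.15 ± 0.05, AMOTL1 by 0.14 ± 0.05 and TEAD1 by -0.13 ± 0.04 (adjusted p = 0.0150, 0.0226 and 0.0286). These were the smallest values that passed, and they were lost in 3, 5 and 7 of 19 alternatives. For YAP1 the alternatives were the fits without replicate 1 of wild type in cadmium (adjusted p = 0.0531), without replicate 2 of the knockout in cadmium (adjusted p = 0.0553) and with only the compared groups (adjusted p = 0.0775). For AMOTL1 they included the fits without replicate 3 of wild type in cadmium, replicate 1 of the knockout in water and replicates 2 and 3 of the knockout in cadmium (adjusted p from 0.0545 to 0.0931). For TEAD1 they included the fits without replicates 1 and 2 of water in each genotype, replicate 2 of wild type in cadmium and replicate 1 of the knockout in cadmium, each left out alone (adjusted p from 0.0502 to 0.119). For TEAD3, the gene that zinc raised most, the zinc responses of the genotypes differed by -0.13 ± 0.09 (adjusted p = 0.312, 95% interval -0.30 to 0.042), and for TEAD1 by -0.10 ± 0.045 (adjusted p = 0.111). The TEAD1 difference passed with DESeq2 (-0.11, adjusted p = 0.0486), with library size alone (-0.12, adjusted p = 0.0385) and without replicate 3 of zinc-treated wild type (-0.14, adjusted p = 0.0166).

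**Figure D4:**
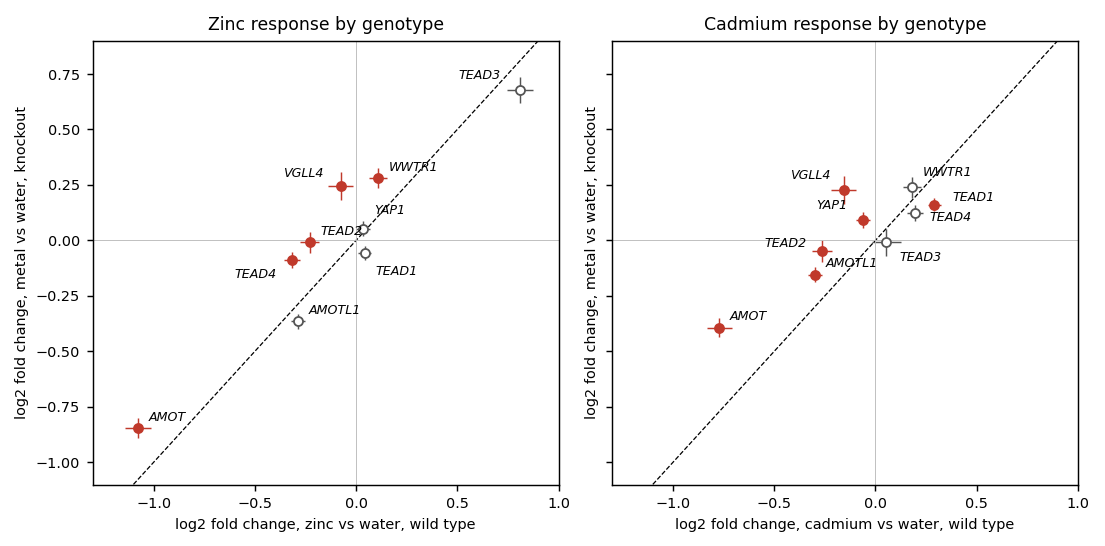
Log2 fold change against water in wild type (horizontal) and in the knockout (vertical) for zinc (left) and cadmium (right), one point per gene with SE bars and a dashed line of equal response; filled red points passed the test of the difference between genotypes. VGLL4, AMOT and TEAD2 lie above the line in both panels, whereas TEAD3, at 0.81 and 0.68 with zinc, is an open point near it.

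The other genes of the pathway were grouped in lists by their roles, and each list's counts and median log2 fold change stand beside those of all tested genes, with no test of a list. Of all genes, 30.8% were higher and 32.1% lower in the knockout in water (median -0.018). Zinc raised 29.4% and lowered 32.0% in wild type (median -0.011) and raised 28.2% and lowered 27.7% in the knockout (median 0.001). Cadmium raised 30.0% and lowered 31.7% in wild type (median -0.014) and raised 23.2% and lowered 23.8% in the knockout (median -0.0025). Of 27 YAP and TAZ target genes, 24 were higher and 2 lower in the knockout in water, with a median log2 fold change of 1.12 against -0.018 for all genes. THBS1, a matrix glycoprotein, was higher by 5.01 ± 0.08, and AXL, a receptor tyrosine kinase, by 4.28 ± 0.14 (adjusted p = 3.64e-36 and 8.03e-26, edgeR quasi-likelihood test, Benjamini-Hochberg adjustment). In wild type cadmium raised 18 of the 27 and lowered 3 (median 0.79). ANKRD1, a classic YAP target, rose by 5.28 ± 0.16 (adjusted p = 3.30e-27). Zinc in wild type raised 12 and lowered 6 (median 0.15). In the knockout cadmium raised 16 and lowered 6 (median 0.28), and zinc raised 13 and lowered 8 (median 0.049). The cadmium response was lower in the knockout for 15 and higher for 2 of the 27 (median -0.29), beside 14.1% lower and 14.0% higher of all genes (median 0.014). For YAP1, WWTR1, the TEAD genes, VGLL4, AMOT and AMOTL1 the cadmium medians were -0.061 in wild type and 0.092 in the knockout. AMOTL2, LATS2, PTPN14 and USP9X are in more than 1 list.

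Of 26 genes of the kinase core and its upstream regulators, 16 were higher and 6 lower in the knockout in water (median 0.19). FRMD6, an upstream scaffold, was higher by 0.91 ± 0.05 and MAP4K2, a kinase parallel to MST1 and MST2, by 0.87 ± 0.06 (adjusted p = 6.65e-19 and 3.03e-15, edgeR quasi-likelihood test, Benjamini-Hochberg adjustment). Zinc in wild type raised 11 and lowered 7 (median 0.053), and cadmium raised 14 and lowered 9 (median 0.18). In the knockout zinc raised 8 and lowered 9 (median 0.022), and cadmium raised 12 and lowered 8 (median 0.064). LATS2, itself a YAP target, rose in wild type by 1.54 ± 0.06 with zinc and 1.35 ± 0.06 with cadmium (adjusted p = 5.97e-24 and 5.49e-22). In the knockout LATS2 rose by 1.04 ± 0.06 with zinc and 0.43 ± 0.06 with cadmium (adjusted p = 1.37e-18 and 1.35e-07). Its response in the knockout minus that in wild type was -0.51 ± 0.08 for zinc and -0.92 ± 0.08 for cadmium (adjusted p = 8.34e-06 and 4.54e-11). LATS1 did not pass with zinc in wild type, at 0.028 ± 0.038 (adjusted p = 0.555).

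Of 12 tested junction partners of the angiomotins, 6 were higher and 3 lower in the knockout in water (median 0.12). In wild type cadmium raised 8 and lowered 0 (median 0.17) and zinc raised 5 and lowered 3 (median 0.038). In water PALS1, a polarity scaffold of tight junctions, was higher in the knockout (log2 fold change 0.41 ± 0.04) and MAGI3, a junction scaffold, lower (-0.57 ± 0.04, adjusted p = 7.52e-11 and 3.15e-14, edgeR quasi-likelihood test, Benjamini-Hochberg adjustment). In cadmium the PALS1 difference was 0.28 ± 0.04 (adjusted p = 5.70e-07). Zinc lowered PALS1, with log2 fold changes of -0.27 ± 0.04 in wild type and -0.69 ± 0.04 in the knockout (adjusted p = 2.28e-06 and 7.53e-17). The second minus the first was -0.43 ± 0.06 (adjusted p = 1.45e-06), so the genotype difference in water does not hold for zinc. Of 8 genes that set the stability of angiomotin protein, 4 rose and 2 fell with zinc (median 0.14) and 4 rose and 1 fell with cadmium (median 0.28) in wild type. RNF146, the ubiquitin ligase that follows tankyrase, changed by -0.69 ± 0.07 with zinc, and NEDD4L, a ubiquitin ligase of the NEDD4 family, by 1.10 ± 0.04 with cadmium (adjusted p = 7.57e-12 and 9.47e-24). NEDD4, whose product ubiquitinates angiomotins, had 0 to 6 counts in each wild-type library and 22.5 ± 0.603 CPM in the knockout in water.

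Of 21 regulators of YAP and TAZ protein, 13 were higher and 5 lower in the knockout in water (median 0.24). In wild type zinc raised 9 and lowered 7 of them (median 0.036) and cadmium raised 10 and lowered 6 (median 0.0095). Between the genotypes in water, SFN, the 14-3-3 protein sigma, was higher in the knockout by 3.75 ± 0.10 and YWHAQ, 14-3-3 theta, by 0.49 ± 0.03 (adjusted p = 2.51e-29 and 3.71e-19, edgeR quasi-likelihood test, Benjamini-Hochberg adjustment). AMER1, a regulator of Wnt signaling, fell with both metals in wild type, with log2 fold changes of -1.60 ± 0.06 with zinc and -1.27 ± 0.06 with cadmium (adjusted p = 2.40e-24 and 1.05e-21). CSNK1E, a casein kinase that marks YAP for degradation, rose in wild type by 0.85 ± 0.03 with zinc and 0.87 ± 0.03 with cadmium (adjusted p = 1.70e-24 and 6.68e-25). Of 11 tested other DNA-binding partners, 4 were higher and 4 lower in the knockout in water (median -0.011). In wild type zinc raised 6 and lowered 1 of them (median 0.17) and cadmium raised 7 and lowered 1 (median 0.15). Between the genotypes in water, RUNX1 and RUNX2, which bind YAP through its WW domains, were higher in the knockout by 1.94 ± 0.09 and 1.57 ± 0.08 (adjusted p = 3.34e-20 and 4.18e-20). Of 20 chromatin cofactors, 6 were higher and 8 lower in the knockout in water (median -0.057). In wild type zinc raised 9 and lowered 7 of them (median 0.045) and cadmium raised 8 and lowered 12 (median -0.11). Zinc in wild type lowered MED1, a Mediator subunit (log2 fold change -1.22 ± 0.04, adjusted p = 1.56e-24).

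The genes whose pattern was most like that of each of the 9 were taken as the 3 with the highest Pearson r of log2 CPM over the 18 libraries among 11325 genes with a mean of at least 5 CPM. The libraries fall into 6 groups, so r mostly describes the group means, and genes of a library share its depth and scaling. For AMOT these genes and their r were NEFL (0.998), ARHGEF17 (0.994) and MAPK13 (0.994), for TEAD1 CPA4 (0.994), RPS6KA3 (0.993) and CNN2 (0.992) and for TEAD4 SEPTIN9 (0.993), HMGB3 (0.989) and TUBBP5 (0.988). For TEAD3 they included PI4K2A (0.980) and STX5 (0.972), for WWTR1 ZNF76 (0.970), NID1 (0.964) and DDR2 (0.960) and for AMOTL1 CHML (0.985), PPP3CB (0.974) and NFE2L1 (0.973). For TEAD2 they were UNC45A (0.894), TPST2 (0.890) and NACC1 (0.889) and for VGLL4 SUMO3 (0.835), SLBP (0.820) and DDX39B (0.817). NEFL, a neurofilament gene, is also in the marker list of the embryonic kidney line, and ARHGEF17 is also in the target list. YAP1, with the smallest range, had the lowest values, RPL7L1 (0.759), CHROMR (0.725) and SNX27 (0.720).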

How the data were processed

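RNA-seq counts from 18 libraries of HEK293A cells (6 groups of 3) were used. RNA was taken with TRIzol and libraries were made with a stranded mRNA kit, per the labels' protocols. The authors deposited unnormalized read counts per gene, a series table that equals the both-strand column of each sample's file in 18 of 18 libraries. The submitters' processing notes name STAR and the builds hg38 and GRCh38.p13. The version of STAR, the annotation and the counting step were not given in the sources used here. Reads of the strand with fewer reads came to 5.24% to 5.94% of the both-strand counts, and for genes that overlap others on the opposite strand the single strand with most reads gave more counts than both strands together, so counts of that strand were tried as an alternative. Gene symbols, exon lengths and coordinates came from GENCODE 29 (58216 of 58336 IDs found), and promoters from RefSeq (GRCh38.p14, 250 bases before each start).

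Counts were filtered with filterByExpr (minimum count 10), scaled by TMM and tested in edgeR 4.0.16 (R 4.3.3, limma 3.58.1) with a quasi-likelihood model of the 6 groups. Benjamini-Hochberg adjustment ran over all 19393 tested genes with a threshold of 0.05, and 95% intervals were taken as normal intervals from the SE. Median biological coefficient of variation was 3.93%. Alternatives were library size alone, DESeq2 1.42.0, no filter, a filter of 5 CPM in 3 libraries, the counts of 1 strand, only the compared groups, a replicate block and leaving out each library. Nothing in the labels says that libraries of a group came from separate cultures, so p-values measure only the spread between these libraries, which may be technical. The 9 genes and the gene lists were chosen with earlier results of these data known. Of each list, up to 3 genes with the largest change among those called with a mean of at least 5 CPM could be named in a comparison, besides AMOTL2, LATS1 and LATS2. NEDD4 and the VGLL4 paralogs were named after their values were seen. Some genes that these rules name are not reported here. Counts of 1 strand and lengths of the longest coding transcript were added for the order of the 9 genes after seeing the data. Figures were drawn with Python 3.11.15 and matplotlib 3.10.9.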

Additional observations from a re-analysis of the deposited data

Results flagged for a closer look

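The tests asked whether a metal moved a gene by a different amount in the 2 genotypes, and each value is the log2 response in the knockout minus that in wild type, from the edgeR quasi-likelihood test. For zinc the difference passed for WWTR1 at 0.17, for TEAD2 at 0.22, for TEAD4 at 0.23, for VGLL4 at 0.32 and for AMOT at 0.23. Of these zinc results only TEAD4 and VGLL4 were called in all 19 alternatives. WWTR1 and AMOT did not pass without replicate 3 of zinc-treated wild type (adjusted p = 0.156 and 0.115). For cadmium the difference passed for YAP1 at 0.15, for TEAD1 at -0.13, for TEAD2 at 0.22, for VGLL4 at 0.39, for AMOT at 0.38 and for AMOTL1 at 0.14. Of these cadmium results only VGLL4 and AMOT were called in all 19 alternatives. TEAD1 rose less with cadmium in the knockout than in wild type. The zinc and cadmium values share their water libraries.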

How the results depend on the processing

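Of 99 results (9 genes in 11 comparisons), 69 passed the threshold, 49 of them under every alternative tried, and 20 lost the call in at least 1. The genotype differences of AMOT, AMOTL1, TEAD1, TEAD3, TEAD4 and WWTR1 and the zinc responses of TEAD3 and AMOT were among the 49. With library size alone, which moves all genes with the metals, the sign turned for YAP1 (zinc in wild type -0.028, zinc in the knockout -0.037, cadmium in the knockout -0.021, knockout against wild type in water 0.0060, zinc response difference -0.0082), TEAD1 with zinc in wild type (-0.021), TEAD3 with cadmium in wild type (-0.066) and VGLL4 between genotypes in cadmium (0.037), and 4 of the 9 genes passed for cadmium in the knockout, where 7 did with TMM. Signs of values near 0 also turned for TEAD2 with zinc in the knockout (0.020 with the filter of 5 CPM, 0.0068 with only the compared groups), TEAD3 with cadmium in the knockout (0.014 with that filter, 0.0039 with only the compared groups, 7.7e-05 on 1 strand), VGLL4 between genotypes in cadmium (0.0043 with only the compared groups) and the zinc response difference of YAP1 (-0.0076 on 1 strand). Leaving out 1 library at a time gave -0.035 to 0.028 for TEAD2 with zinc in the knockout (positive without replicate 2 or 3 of zinc), -0.056 to 0.013 for TEAD3 with cadmium in the knockout (positive without replicate 2 of water or 2 or 3 of cadmium), -0.0042 to 0.12 for TEAD3 with cadmium in wild type (negative without replicate 3 of water) and -0.052 to 0.024 for AMOTL1 between the metals in wild type (positive without replicate 2 of zinc or 3 of cadmium). For the zinc response difference 3 genes passed with no filter, where 5 did with it, and 3 to 5 without 1 library, the 3 being without replicate 1 or 2 of wild type in water or replicate 3 of the knockout in zinc. Without 1 library, 4 to 6 genes passed for the cadmium difference and 5 to 8 in the genotype and metal comparisons, except 4 to 5 for cadmium against zinc in wild type. Same-numbered libraries deviated together with correlations of -0.06 to 0.35 over 27 pairs, above 0.1 for every pair in 2 of 9 comparisons, and 20 of 27 correlated best with their own number, a hint from the data and not the design, so the numbers were not taken as pairs. The fit with the replicate number as a block gave 12025 called genes for zinc in wild type, against 11892 without it, and changed no call or sign of the 9 genes. The number of all genes called moved by over 1.5 times under none of the alternatives. The causes were not tested. Counting depth was lowest for AMOT and VGLL4, the fewest counts in a library being 239.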
